A study of Mus musculus with 21 samples.

Results

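Klotho (*Kl*) and the 7 mouse sirtuins (*Sirt1* to *Sirt7*) were followed across podocyte mRNA-seq libraries of young and middle-aged mice. The 8 genes were taken by symbol, through their Entrez Gene numbers, from 27179 genes in the count tables of 21 libraries, and all 8 passed the filter on low counts that left 16377 genes for testing. The libraries came from the kidney cortex of male wildtype mice, from which a podocyte fraction had been collected with antibodies to nephrin and magnetic beads. There were 6 untreated young mice of 4 months, 7 middle-aged mice of 19.5 months that received saline, and 8 middle-aged mice of 19.5 months that received MCC950, a small-molecule inhibitor of the NLRP3 inflammasome. MCC950 was given by intraperitoneal injection at 10 mg/kg for 6 weeks, beginning at 18 months of age, and saline was its vehicle. The young mice received no injections, so age and vehicle cannot be told apart in the comparison of saline-treated with young mice. The saline group also served both comparisons of middle-aged mice, with young mice as the aged group and with MCC950-treated mice as the control.

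Klotho is a membrane protein made mainly by the distal convoluted tubule of the kidney, and to a lesser degree by the proximal tubule. It is the co-receptor through which the bone hormone FGF23 acts on FGF receptors to lower phosphate uptake and the synthesis of active vitamin D, and its shed ectodomain circulates. Mice that lack it show signs of early aging. Sirtuins remove acetyl and other acyl groups from proteins and consume NAD with each reaction, which ties their activity to the NAD supply of the cell. SIRT1, SIRT6 and SIRT7 act mainly in the nucleus, SIRT2 mainly in the cytosol, and SIRT3, SIRT4 and SIRT5 in mitochondria.

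The bases before the RefSeq start sites of *Kl* and *Sirt1* (GRCm38.p6) are shown because these were the members with lower mRNA in a comparison, *Kl* in saline-treated against young mice and *Sirt1* in MCC950-treated against saline-treated mice, and because nearly all of their windows lies outside annotated exons. Capitals mark the motifs found by letter on either strand, which were the GC box GGGCGG (or CCGCCC) and the E-box CACGTG. The *Kl* sequence is chr5:150952357-150952606 on the plus strand, and the *Sirt1* sequence is chr10:63339051-63339285 on the minus strand, both written 5′ to 3′.
Kl: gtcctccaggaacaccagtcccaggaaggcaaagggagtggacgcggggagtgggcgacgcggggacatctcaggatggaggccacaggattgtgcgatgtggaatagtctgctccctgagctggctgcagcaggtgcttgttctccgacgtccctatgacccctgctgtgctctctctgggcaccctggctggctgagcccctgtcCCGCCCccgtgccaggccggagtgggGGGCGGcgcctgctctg
Sirt1: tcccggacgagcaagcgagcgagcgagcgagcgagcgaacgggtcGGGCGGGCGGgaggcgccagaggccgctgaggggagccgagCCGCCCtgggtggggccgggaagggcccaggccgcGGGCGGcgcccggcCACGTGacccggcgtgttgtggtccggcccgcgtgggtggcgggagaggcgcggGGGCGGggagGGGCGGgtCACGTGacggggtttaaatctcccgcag
The 250 bases before *Kl* were 66.8% G and C and held 2 GC boxes and no E-box. The 235 bases before *Sirt1* held 6 GC boxes, of which the first 2 overlap, and 2 E-boxes. Of 32851 RefSeq promoter windows of 250 bases, 32.7% held a GC box and 6.02% an E-box, and the median window was 52.4% G and C. In the full windows of 250 bases, *Sirt3* held 3 GC boxes and 1 CCAAT box before the downstream one of its RefSeq start sites, *Sirt2* held 1 GC box and 2 CCAAT boxes, *Sirt5* held 1 GC box, 1 CCAAT box and 1 AAGGTCA element, *Sirt7* and one of the *Sirt6* windows held 1 GC box each, and *Sirt4* held none of the 6 motifs searched. A CCAAT box was found in 33.8% of all windows and AAGGTCA, the element of estrogen-related receptors, in 4.08%. The other motifs searched were TATAAA, in 12.4% of all windows, and TGACGTCA, in 1.55%, and neither was found before a member.

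Sequencing depth ranged from 27375870 to 36827823 counts in the young libraries, from 45772937 to 84876399 in the saline libraries and from 35440472 to 58247271 in the MCC950 libraries. The mean share of mitochondrially encoded genes was 69.3% in young, 69.6% in saline-treated and 56.4% in MCC950-treated mice. The label podocyte was checked against marker genes. The summed CPM (read counts scaled to library size by the TMM method of edgeR) of 14 podocyte markers was 788 to 1768 in young, 306 to 564 in saline-treated and 407 to 685 in MCC950-treated mice. In each group the lowest summed CPM of 13 proximal tubule markers (1898, 2038 and 2966, in the same order) and of 9 distal tubule markers (2897, 2159 and 2215) was above the highest of the podocyte markers. Podocyte markers were thus present in every library, below those of the tubule. In bulk libraries fewer cells of a type and less RNA per cell cannot be told apart.

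Per length of transcript, *Kl* was by far the most abundant of the 8 mRNAs and *Sirt5* the least. In young mice the mean level was 87.8 ± 19.9 CPM per kb (SD, n = 6) for *Kl*, each value being divided by the longest coding transcript of the gene in GENCODE M21. *Sirt7* followed at 12.5 ± 2.24 CPM per kb. *Sirt2* stood at 9.95 ± 0.344 CPM per kb and *Sirt3* at 9.92 ± 2.31 CPM per kb, and *Sirt2* was above *Sirt3* in 4 of 6 young libraries, so that their order was not resolved. The level of *Sirt1* was 4.75 ± 0.511 CPM per kb and that of *Sirt4* 3.51 ± 0.368 CPM per kb. *Sirt6* at 2.45 ± 0.217 CPM per kb and *Sirt5* at 1.48 ± 0.285 CPM per kb were lowest. Apart from *Sirt2* and *Sirt3*, and *Sirt7* and *Sirt2* (5 of 6 libraries), each gene was above the next in all 6 young libraries.

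In saline-treated mice the order of the 8 levels per kb was the same. *Kl* was above *Sirt7* in 7 of 7 saline libraries, while *Sirt2* was above *Sirt3* in 6 of 7 and *Sirt4* above *Sirt6* in 5 of 7. In MCC950-treated mice *Sirt3*, at 12.8 ± 2.61 CPM per kb (n = 8), stood above *Sirt2*, at 12.01 ± 0.815 CPM per kb, in 5 of 8 libraries. *Sirt4*, at 3.97 ± 0.674 CPM per kb, stood above *Sirt1*, at 3.55 ± 0.538 CPM per kb, in 6 of 8 libraries. These are descriptions of neighbouring levels. Dividing by the length of all annotated exons instead put *Sirt1* above *Sirt3* in young and saline-treated mice and *Sirt2* above *Sirt3* in MCC950-treated mice, so the places of *Sirt1*, *Sirt2* and *Sirt3* depend on the length used. *Kl* and *Sirt5* stayed first and last with both lengths in all 3 groups.

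**Figure D1:**
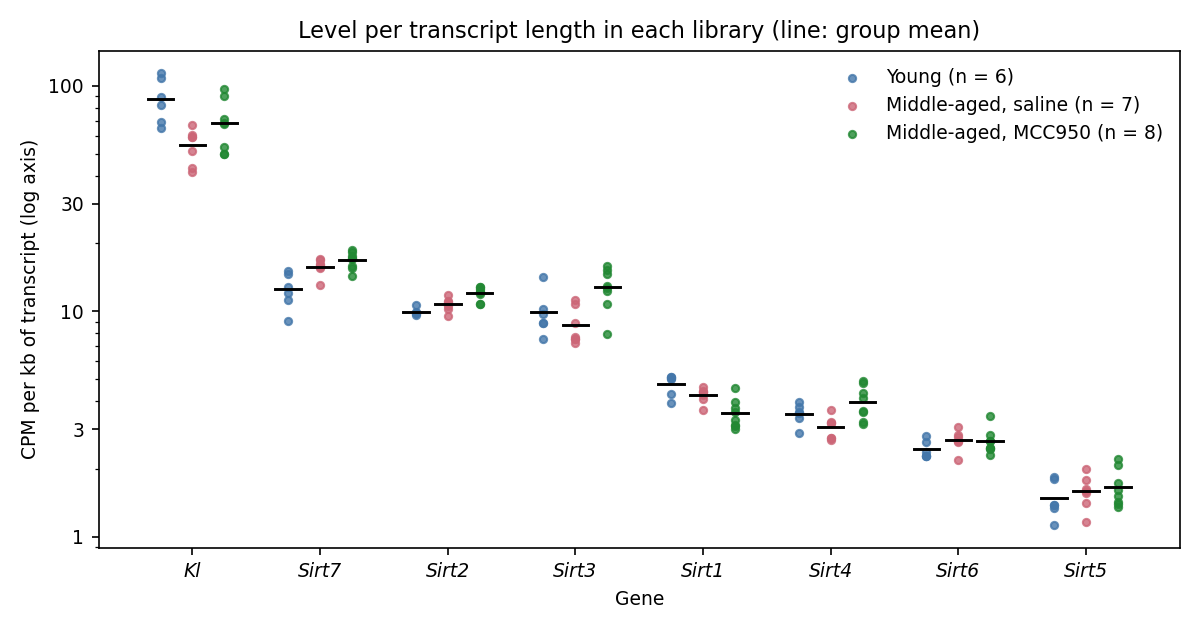
Level of each gene in every library, as CPM per kb of its longest coding transcript (log axis), ordered by the mean in young mice. Points are libraries, coloured by group, and black lines are group means. *Kl* lies above every sirtuin in all 21 libraries, with means of 87.8, 54.6 and 68.4 CPM per kb in young, saline-treated and MCC950-treated mice.

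The first question was how these genes differed with age, the second whether MCC950 changed them in middle-aged mice, and the third how MCC950-treated middle-aged mice compared with young mice. With age, *Kl* fell and *Sirt7* rose, and the other 6 genes did not pass the test. With MCC950, *Sirt3*, *Sirt4* and *Sirt2* rose and *Sirt1* fell relative to saline, while *Kl*, *Sirt5*, *Sirt6* and *Sirt7* did not pass. Between MCC950-treated and young mice, *Sirt2* and *Sirt7* were higher and *Sirt1* was lower. A gene was called at an adjusted p under 0.05 in the quasi-likelihood test of edgeR, adjusted by Benjamini-Hochberg over all 16377 genes.

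The shares of all genes called give the measure for these counts. With age 12.2% of all genes tested were called higher and 12.4% lower, against 1 and 1 of the 8 members. With MCC950 11.9% were called higher and 4.86% lower, against 3 and 1 of 8. Between MCC950-treated and young mice 21.8% were called higher and 16.5% lower, against 2 and 1 of 8. The median log2 fold change of the 8 members was -0.03 with age, 0.13 with MCC950 and 0.17 between MCC950-treated and young mice, while that of all genes was 0.02, 0.00 and 0.08. The age and MCC950 comparisons share the saline libraries, so a high or low saline value enters both with opposite sign.

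**Figure D2:**
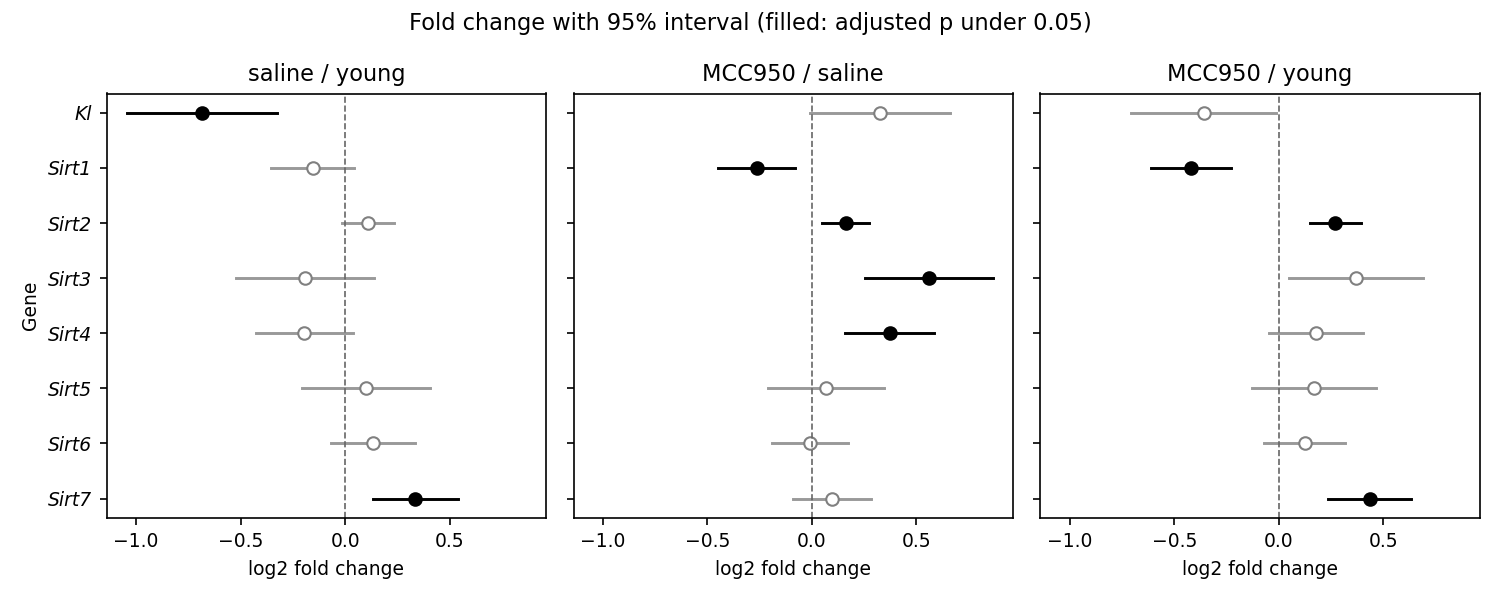
Log2 fold change of each gene with its 95% interval in the 3 comparisons, from the edgeR fit. Filled black points have an adjusted p under 0.05. *Kl* at -0.69 is the lowest point with age and *Sirt3* at 0.56 the highest with MCC950.

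*Kl* (chr5:150952607-150993817, plus strand, GRCm38) had its highest values in young mice. Its CPM was 333 at the lowest, 438 at the median and 581 at the highest of the 6 young libraries. In the 7 saline libraries it was 212, 303 and 341 CPM. In the 8 MCC950 libraries it was 255, 349 and 493.1 CPM. Of the 7 saline libraries 6 lay below every young library, and only saline replicate 3, at 341 CPM, reached into the young range. The MCC950 libraries spread over both ranges, with 5 of 8 above every saline library and 3 of 8 below every young one. Raw counts of *Kl* were 7483 or more in every library.

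The mean of *Kl* was 449 ± 102 CPM (SD, n = 6) in young, 279 ± 48.7 CPM (n = 7) in saline-treated and 350.3 ± 90.6 CPM (n = 8) in MCC950-treated mice. With age *Kl* fell by 0.69 on the log2 scale (SE 0.17, 95% interval -1.04 to -0.33, adjusted p = 0.00645), which is 0.622 of the young level. It was called lower in all 21 fits that left out 1 library, with an adjusted p of at most 0.0198. The log2 fold change with MCC950 was 0.33 (SE 0.16, 95% interval -0.01 to 0.66, adjusted p = 0.171). Against young mice the MCC950 value was -0.36 (SE 0.17, 95% interval -0.71 to -0.01, adjusted p = 0.0943), and it passed the threshold in 4 of the 21 fits that left out 1 library (young replicate 4 or 6, or MCC950 replicate 2 or 3, with the lowest adjusted p at 0.0333). It also passed in 2 of the 12 alternative settings (DESeq2, -0.40, adjusted p = 0.0423, and the proximal tubule score as a covariate, -0.52, adjusted p = 0.0278), with adjusted p up to 0.878 in the others.

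Markers of several cell types were lower together with *Kl* in saline-treated mice, among them those of the distal tubule, the segment where *Kl* is most abundant. The mean log2 CPM of the distal tubule markers was 7.55 ± 0.196 in young, 7.18 ± 0.224 in saline-treated and 7.28 ± 0.278 in MCC950-treated mice, and it was lower in saline-treated than in young mice (difference -0.37, exact two-sided permutation test, p = 0.00932, 0.0234 after Benjamini-Hochberg adjustment over 33 marker comparisons). Of the 9 distal tubule markers 4 were called lower with age and 0 higher. The summed CPM of the 9 ranged from 2897 to 4346 in young and from 2159 to 3454 in saline-treated mice, and none was at 0. *Slc12a3*, the sodium chloride cotransporter of the distal convoluted tubule, had a median of 780 CPM in young and 866 CPM in saline-treated mice, and *Pvalb*, which encodes parvalbumin, had medians of 17.2 and 12.5 CPM. Other marker scores fell further with age by the same test, with differences of -0.61 for the collecting duct (7 of 10 markers called lower, summed CPM 771 to 1659 in young and 499.9 to 868 in saline-treated mice, adjusted p = 0.00769) and -1.83 for podocytes (13 of 14 called lower, adjusted p = 0.00628). The difference was -0.96 for endothelium (9 of 10 called lower, summed CPM 548 to 1008 and 299.8 to 467) and -1.08 for mesangium and smooth muscle (6 of 8 called lower, summed CPM 152 to 231 and 51.0 to 104.6), each with an adjusted p of 0.00628 by the exact permutation test. None of these markers was at 0 in all libraries, and the part of the collecting duct, endothelial and mesangial markers in the *Kl* result was not tested. With the distal tubule score as a covariate the log2 fold change of *Kl* with age was -0.23 (adjusted p = 0.225), and with the proximal tubule score it was -0.61 (adjusted p = 0.00842). Over its 12 alternative settings the adjusted p ranged from 0.000475 to 0.624, the highest with the podocyte score, whose values in young and saline-treated mice do not overlap.

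**Figure D3:**
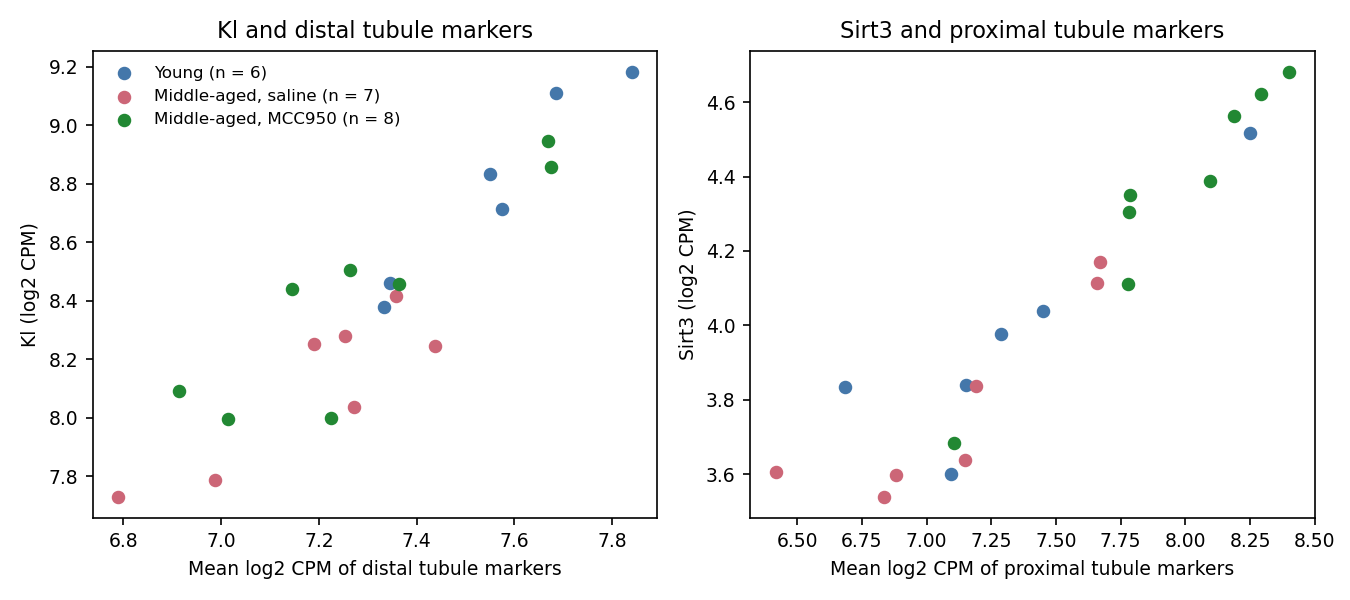
Left, log2 CPM of *Kl* against the mean log2 CPM of 9 distal tubule markers in each of the 21 libraries. Right, log2 CPM of *Sirt3* against the mean log2 CPM of 13 proximal tubule markers. Points are libraries, coloured by group. The highest *Kl* value (581 CPM, young replicate 3) and the lowest (212 CPM, saline replicate 2) belong to the libraries with the highest and the lowest distal tubule score.

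Of the nuclear sirtuins, *Sirt7* was the one that rose with age. Markers of immune cells also rose in that comparison. SIRT7 is concentrated in the nucleolus, where it acts on ribosomal RNA synthesis. *Sirt7* (chr11:120618372-120625240, minus strand) was 15.7 CPM at the lowest, 21.5 at the median and 26.1 at the highest of the young libraries. In saline libraries it was 22.5, 27.9 and 29.4 CPM. In MCC950 libraries it was 24.9, 29.7 and 32.3 CPM. All saline libraries but replicate 4 lay above every young library, and 7 of 8 MCC950 libraries did.

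The rise of *Sirt7* with age was 0.34 on the log2 scale (SE 0.10, 95% interval 0.13 to 0.54, adjusted p = 0.0157), which is 1.26 times the young level. The difference between MCC950-treated and young mice was 0.43 (SE 0.10, adjusted p = 0.00148), and with MCC950 against saline the value was 0.10 (SE 0.09, 95% interval -0.09 to 0.28, adjusted p = 0.487). With the podocyte score as a covariate the difference between MCC950-treated and young mice was 0.12 (adjusted p = 0.731). The age call was kept in all 21 fits without 1 library (adjusted p of at most 0.0452), and it was lost in 3 of 12 alternative settings. These were the distal tubule score as a covariate (0.22, adjusted p = 0.238), counts thinned to equal depth (0.27, adjusted p = 0.0570) and the podocyte score as a covariate, which turned the value to -0.10 (adjusted p = 0.793). Outside mitochondrially encoded genes the young libraries held 5804891 to 13269290 counts and the saline libraries 14362648 to 27818925. The marker scores that rose with age were those of B and plasma cells, by 1.73 (4 of 7 markers called higher, summed CPM 43.3 to 194 in young and 411 to 603 in saline-treated mice), T cells, by 1.15 (3 of 7 called higher, summed CPM 7.24 to 18.6 and 17.6 to 27.6), and macrophages and myeloid cells, by 0.99 (3 of 9 called higher, summed CPM 390.2 to 1897 and 1417 to 3415). Their adjusted p in the exact permutation test was 0.00769, 0.00769 and 0.0234, none of these markers was at 0 in all libraries, and their part in the *Sirt7* result was not tested. The annotated exons of *Sirt7* overlap those of *Mafg* and the microRNA gene *Mir6936* on the same strand over 3.46% of their length, and *Mafg* itself stood at -0.04 with age on the log2 scale (adjusted p = 0.760).

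*Sirt1* encodes the best studied nuclear deacetylase of the family, which acts on histones and on transcription factors such as p53 and FOXO proteins. *Sirt1* (chr10:63319005-63381704, minus strand) was 17.4 CPM at the lowest, 22.2 at the median and 22.7 at the highest of the young libraries. In saline libraries it was 16.1, 19.5 and 20.4 CPM. In MCC950 libraries it was 13.3, 15.2 and 20.3 CPM. Every MCC950 library lay below the young median, and 5 of 8 lay below every saline library, although MCC950 replicate 3, at 20.3 CPM, stood near the top of the saline range.

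*Sirt1* fell by 0.26 on the log2 scale with MCC950 against saline (SE 0.09, 95% interval -0.45 to -0.08, adjusted p = 0.0423), which is 0.832 of the saline level. Against young mice the MCC950-treated mice were lower by a log2 fold change of -0.42 (SE 0.09, adjusted p = 0.0014). The age value was -0.16 (SE 0.09, 95% interval -0.35 to 0.04, adjusted p = 0.247). The call with MCC950 was kept in only 9 of the 21 fits without 1 library (any young replicate, saline replicate 1, or MCC950 replicate 3 or 7), with adjusted p from 0.0154 to 0.0865. It was kept in 8 of 12 alternative settings, with adjusted p from 0.0215 to 0.546. With the proximal tubule score as a covariate the value was -0.11 (adjusted p = 0.546). The call against young mice was kept in all 21 fits without 1 library and in 11 of 12 alternative settings. It was lost with the podocyte score as a covariate (-0.27, adjusted p = 0.420).

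*Sirt6*, which encodes a nuclear deacylase of chromatin and DNA repair, passed in no comparison. *Sirt6* (chr10:81621785-81627797, minus strand) had medians of 4.43 CPM in young, 5.02 CPM in saline-treated and 4.88 CPM in MCC950-treated mice, within 4.13 to 6.52 CPM over all 21 libraries. Its log2 fold changes were 0.13 with age (95% interval -0.07 to 0.33), -0.01 with MCC950 (95% interval -0.19 to 0.17) and 0.12 between MCC950-treated and young mice (95% interval -0.07 to 0.32). A change of *Sirt6* with MCC950 of more than 1.13-fold upward, or to less than 0.876 of the saline level, lies outside the 95% interval.

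*Sirt2*, whose product deacetylates tubulin and other proteins of the cytosol, showed the smallest spread of all members, with a coefficient of variation of 3.46% in young mice. *Sirt2* (chr7:28766735-28788661, plus strand) was 20.4 CPM at the lowest, 20.8 at the median and 22.5 at the highest of the young libraries. In saline libraries it was 20.1, 22.9 and 25.01 CPM. In MCC950 libraries it was 22.8, 25.7 and 27.2 CPM. All 8 MCC950 libraries lay above all 6 young libraries, which was seen in the upward direction for 3.28% of all genes tested, and 6 of 8 lay above every saline library. *Sirt2* was the only member whose groups did not overlap in a comparison.

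With MCC950 *Sirt2* rose by 0.16 on the log2 scale against saline (SE 0.05, 95% interval 0.05 to 0.27, adjusted p = 0.0472), which is 1.12 times the saline level. It was higher by 0.27 than in young mice (SE 0.06, adjusted p = 0.00112), and the age value was 0.11 (SE 0.06, 95% interval -0.01 to 0.23, adjusted p = 0.184). The call with MCC950 against saline lay close to the threshold. It was kept in 3 of the 21 fits without 1 library (young replicate 1, MCC950 replicate 2 or MCC950 replicate 3), with adjusted p from 0.0271 to 0.175, and in 5 of 12 alternative settings, with adjusted p from 0.0210 to 0.163. The call against young mice was kept in all 21 fits and in 11 of 12 alternative settings. It was lost with the podocyte score as a covariate (0.17, adjusted p = 0.426). The exons of *Sirt2* overlap those of *Nfkbib* on the other strand over 0.834% of their length. On the log2 scale *Nfkbib* stood at 0.42 with age (adjusted p = 0.0201) and 0.30 with MCC950 against saline (adjusted p = 0.0826). Between MCC950-treated and young mice it was at 0.72 (adjusted p = 0.000193), and its part in the *Sirt2* values was not tested.

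Of the mitochondrial sirtuins, *Sirt3* and *Sirt4* rose with MCC950 and *Sirt5* did not pass. SIRT3 is the main deacetylase of mitochondria and acts on enzymes of fatty acid oxidation and on manganese superoxide dismutase. *Sirt3* (chr7:140863666-140882309, minus strand) was 12.1 CPM at the lowest, 15.0 at the median and 22.9 at the highest of the young libraries. In saline libraries it was 11.6, 12.4 and 18.0 CPM. In MCC950 libraries it was 12.8, 20.6 and 25.6 CPM. All 8 MCC950 libraries lay above the saline median and 6 of 8 above every saline library, while MCC950 replicate 7, at 12.8 CPM, lay in the lower part of the saline range.

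The mean of *Sirt3* was 15.9 ± 3.71 CPM (SD, n = 6) in young, 14.0 ± 2.64 CPM (n = 7) in saline-treated and 20.6 ± 4.19 CPM (n = 8) in MCC950-treated mice. It rose by 0.56 on the log2 scale with MCC950 (SE 0.15, 95% interval 0.25 to 0.87, adjusted p = 0.0150), which is 1.47 times the saline level. The age value was -0.19 (SE 0.16, 95% interval -0.52 to 0.14, adjusted p = 0.408) and that between MCC950-treated and young mice 0.37 (SE 0.15, 95% interval 0.05 to 0.69, adjusted p = 0.0643). The latter came under the threshold without young replicate 1, the highest young library for *Sirt3* (0.50, adjusted p = 0.0112), or without MCC950 replicate 7 (0.44, adjusted p = 0.0167). It also did so in 2 of the 12 alternative settings, the replicate block (0.48, adjusted p = 0.00166) and the distal tubule score as a covariate (0.50, adjusted p = 0.0231), with adjusted p up to 0.983 in the others. The call with MCC950 was kept in all 21 fits without 1 library (adjusted p of at most 0.0391).

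The proximal tubule markers moved with *Sirt3*. Their mean log2 CPM was 7.32 ± 0.523 in young, 7.11 ± 0.453 in saline-treated and 7.93 ± 0.413 in MCC950-treated mice, higher with MCC950 than with saline by 0.81 (exact two-sided permutation test, p = 0.00311, 0.00932 after Benjamini-Hochberg adjustment over 33 marker comparisons). Of the 13 markers 7 were called higher with MCC950 and 0 lower, their summed CPM ranged from 2038 to 4795 in saline-treated and from 2966 to 8649 in MCC950-treated mice, and none was at 0. *Lrp2*, which encodes megalin, had a median of 159 CPM in saline-treated and 328 CPM in MCC950-treated mice. The podocyte score was also higher with MCC950 than with saline, by 0.52 (5 of 14 markers called higher, adjusted p = 0.0234 by the permutation test). The score of the thick ascending limb was lower (difference -0.44, 3 of 9 called lower, adjusted p = 0.0256). With the podocyte score as a covariate *Sirt3* stood at 0.72 (adjusted p = 0.00363), and the part of the thick ascending limb was not tested. With the proximal tubule score as a covariate the log2 fold change of *Sirt3* with MCC950 was 0.07 (adjusted p = 0.673), and none of the 8 members was called in that fit, which called 802 of all 16377 genes. In the other 11 alternative settings *Sirt3* was called higher, with the lowest adjusted p at 0.000795. The annotated exons of *Sirt3* overlap those of *Psmd13* and *Ric8a* on the other strand over 12.7% of their length, and the strand setting of the counting is not given in the sources used here. With MCC950 against saline *Psmd13* stood at 0.17 on the log2 scale (adjusted p = 0.153) and *Ric8a* fell by 0.22 (adjusted p = 0.0292).

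SIRT4 is a mitochondrial enzyme that acts on glutamate dehydrogenase and malonyl-CoA decarboxylase. *Sirt4* (chr5:115478010-115484725, minus strand) was 5.18 CPM at the lowest, 6.38 at the median and 7.11 at the highest of the young libraries. In saline libraries it was 4.85, 5.75 and 6.53 CPM. In MCC950 libraries it was 5.70, 6.93 and 8.82 CPM, and 7 of 8 of them lay above the saline median. It rose by 0.37 on the log2 scale with MCC950 (SE 0.10, 95% interval 0.16 to 0.59, adjusted p = 0.0186), which is 1.29 times the saline level. The age value was -0.19 (SE 0.11, adjusted p = 0.215) and that against young mice 0.18 (SE 0.11, adjusted p = 0.203). The call with MCC950 was kept in all 21 fits without 1 library (adjusted p of at most 0.0474) and in 11 of 12 alternative settings. With the proximal tubule score as a covariate it was lost, at 0.22 (adjusted p = 0.308).

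SIRT5 removes succinyl, malonyl and glutaryl groups from mitochondrial proteins. *Sirt5* (chr13:43365496-43395203, plus strand) had the lowest raw counts of the members, from 60 to 392, and ranged from 2.73 to 5.35 CPM over all libraries. Its medians were 3.36 CPM in young, 3.87 CPM in saline-treated and 3.78 CPM in MCC950-treated mice, and the groups overlapped almost fully. The log2 fold changes were 0.10 with age (95% interval -0.20 to 0.41, adjusted p = 0.664), 0.07 with MCC950 (95% interval -0.21 to 0.34, adjusted p = 0.773) and 0.17 against young mice (95% interval -0.13 to 0.46, adjusted p = 0.368). A 1.27-fold rise with MCC950 is at the edge of its interval.

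**Figure D4:**
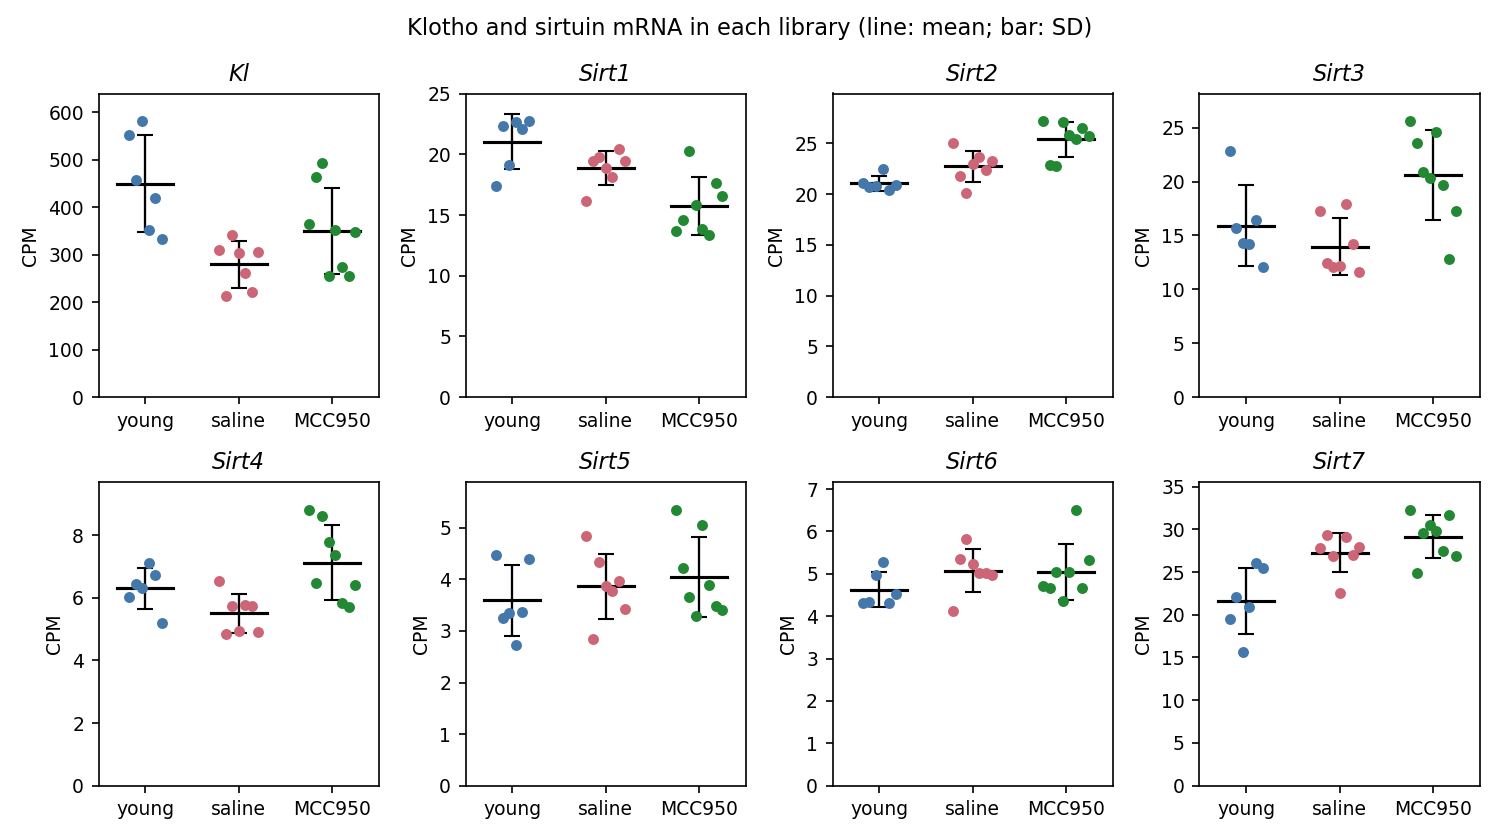
CPM of each gene in every library of the young (n = 6), saline-treated (n = 7) and MCC950-treated (n = 8) groups. Points are libraries, horizontal lines are means and bars are SD, and each axis starts at 0. *Kl* is lower in the saline group, *Sirt3* and *Sirt4* are higher in the MCC950 group, and all 8 MCC950 points of *Sirt2* lie above all 6 young points.

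The genes around *Kl* in the FGF23 axis and in renal phosphate and calcium handling were read from a list of 21, of which 19 were tested. *Fgf23*, the hormone, had 0 counts in all 21 libraries, and *Klb*, the paralogue that serves FGF21, had at most 8 counts and was not tested. With age 6 of 19 were called lower and 0 higher, beside 12.4% and 12.2% of all genes. The median log2 fold change of the 19 was -0.34, against 0.02 for all genes. Of the receptors, *Fgfr3* fell by 0.74 (SE 0.17, adjusted p = 0.00309), from 19.1 ± 3.43 CPM in young to 11.5 ± 2.71 CPM in saline-treated mice. *Fgfr2* fell by 0.52 (SE 0.15, adjusted p = 0.0126). *Fgfr1*, the receptor that binds FGF23 with klotho, was 29.3 ± 3.99 CPM in young and 28.2 ± 4.12 CPM in saline-treated mice (log2 fold change -0.06, adjusted p = 0.769). *Vdr*, the vitamin D receptor, fell by 0.43 (adjusted p = 0.0253), and *Trpv5*, the apical calcium channel of the distal tubule, fell by 0.52 (adjusted p = 0.0491). Most of these age calls were lost with some marker scores as a covariate. The number called lower was 1 with the distal tubule score, 0 with the podocyte score and 5 with the proximal tubule score. The podocyte score did not overlap between young and saline-treated mice.

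With MCC950 against saline 6 of the same 19 were called higher and 0 lower, beside 11.9% and 4.86% of all genes. The median log2 fold change of the 19 was 0.07, against 0.00 for all genes. *Slc34a1*, the main renal sodium phosphate cotransporter, ranged from 500.4 to 1230.1 CPM in saline and from 911 to 2151 CPM in MCC950 libraries and rose by 0.99 (SE 0.23, adjusted p = 0.00955). *Slc34a3*, a further phosphate cotransporter, ranged from 3.87 to 11.1 CPM in saline and from 10.5 to 24.3 CPM in MCC950 libraries and rose by 1.47 (SE 0.25, adjusted p = 0.00136). *Fgfr4* rose by 0.94 (adjusted p = 0.0040) and *Pth1r*, the parathyroid hormone receptor, by 0.67 (adjusted p = 0.00843). With the proximal tubule score as a covariate 2 of the 19 were called higher, *Slc34a3* (0.88, adjusted p = 0.0213) and *Lctl* (1.61, adjusted p = 0.0349), and 1 was called lower, *Slc20a2* (-0.36, adjusted p = 0.0187). *Lctl*, a klotho-related gene, was at a mean of 0.170 CPM in saline and 0.624 CPM in MCC950 libraries. *Lctl* and *Slc20a2* were named after their values were seen.

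Between MCC950-treated and young mice 6 of the 19 were called higher and 5 lower, beside 21.8% and 16.5% of all genes. *Cyp27b1*, which makes active vitamin D, had the largest rise among the called genes of the list, 2.38 (SE 0.82, adjusted p = 0.0258), from 0.549 to 1.49 CPM in young and from 1.80 to 13.05 CPM in MCC950 libraries. In saline-treated mice its median was 1.02 CPM and 1 library reached 25.3 CPM. *Trpv5* was lower by 0.85 (log2 fold change -0.85, adjusted p = 0.00134) and *Fgfr2* by 0.72 (log2 fold change -0.72, adjusted p = 0.000567).

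NAD is the cosubstrate of all sirtuins, and a list of 20 genes around its synthesis had 16 tested genes. The list also holds genes that use NAD, carry it or divert its precursors. A count of its genes is therefore not a count of enzymes that make NAD. With age 1 was called higher, *Nadk*, the NAD kinase, which uses NAD and does not make it, by 0.31 (SE 0.07, adjusted p = 0.00252), and 0 lower. Of all genes 12.2% were called higher and 12.4% lower in that comparison. With MCC950 against saline 9 of 16 were called higher and 0 lower, beside 11.9% and 4.86% of all genes. The median log2 fold change of the 16 was 0.45, against 0.00 for all genes. The largest of the named ones were enzymes of the route from tryptophan. *Acmsd*, which diverts that route away from NAD, rose by 1.03 (SE 0.27, adjusted p = 0.0141), from 4.25 to 14.1 CPM in saline to 12.9 to 34.7 CPM in MCC950 libraries. *Afmid* rose by 0.80 (adjusted p = 0.0159), *Qprt*, which commits quinolinate to NAD, by 0.76 (adjusted p = 0.0378) and *Haao* by 0.68 (adjusted p = 0.0260). None of these calls was kept in the edgeR fit with the proximal tubule score as a covariate.

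*Nampt*, the rate-limiting enzyme of the salvage of nicotinamide, passed in no comparison. It was 70.4 ± 7.96 CPM in young, 64.4 ± 9.05 CPM in saline-treated and 61.5 ± 5.36 CPM in MCC950-treated mice, with log2 fold changes of -0.13 with age (adjusted p = 0.341) and -0.06 with MCC950 (adjusted p = 0.651). Between MCC950-treated and young mice 12 of the 16 tested genes of the NAD synthesis list were called higher and 0 lower, beside 21.8% and 16.5% of all genes. Among the 12 were *Kynu*, higher by 1.17 (adjusted p = 0.00515), and *Qprt*, higher by 0.98 (adjusted p = 0.00636). Of 5 other tested enzymes that use NAD, *Bst1*, a surface enzyme that cleaves NAD, fell by 0.84 with MCC950 against saline (SE 0.19, adjusted p = 0.00876), from 5.06 to 7.87 CPM in saline to 1.34 to 5.54 CPM in MCC950 libraries, and the other 4 did not pass. With age 0 of the 5 passed. Of all genes 11.9% were called higher and 4.86% lower with MCC950 against saline, and 12.2% and 12.4% with age.

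Among 3 genes whose proteins bind or repress sirtuins, *Rps19bp1*, which encodes an activator of SIRT1, rose by 0.44 with MCC950 against saline (SE 0.11, adjusted p = 0.0129) while *Sirt1* itself fell. *Ccar2*, which encodes a SIRT1 inhibitor, had values of 0.10 with age (adjusted p = 0.182) and -0.08 with MCC950 (adjusted p = 0.299). With age 0 of the 3 were called. The shares of all genes were 11.9% higher and 4.86% lower with MCC950 against saline, and 12.2% and 12.4% with age.

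Of 25 genes for proteins that sirtuins are known to act on, 24 were tested. With age 4 were called higher and 3 lower, beside 12.2% and 12.4% of all genes. The median log2 fold change of the 24 was 0.02, beside 0.02 for all genes. *Hif1a*, a target of several sirtuins, fell by 0.60 (SE 0.09, adjusted p = 7.98e-05), from 47.5 ± 6.06 CPM in young to 31.3 ± 2.84 CPM in saline-treated mice. *Nos3*, the endothelial nitric oxide synthase, fell by 0.67 (adjusted p = 0.0220), and the endothelial markers were also lower, with 9 of 10 called. *Trp53*, which encodes p53, rose by 0.40 (adjusted p = 0.0180). With MCC950 against saline 5 were called higher and 1 lower, beside 11.9% and 4.86% of all genes. The median log2 fold change of the 24 was then 0.05, beside 0.00 for all genes. *Pck1*, a gluconeogenic enzyme of the proximal tubule, rose by 1.19 (adjusted p = 0.0117). *Sod2*, which encodes manganese superoxide dismutase and is a target of SIRT3, rose by 0.49 (SE 0.10, adjusted p = 0.00587). *Hif1a* fell by a further 0.26 (adjusted p = 0.0374). *Ppargc1a*, the coactivator of mitochondrial biogenesis, passed neither with age (-0.13, adjusted p = 0.622) nor with MCC950 (-0.20, adjusted p = 0.382).

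The zinc-dependent deacetylases, do not use NAD. With age *Hdac3* rose by 0.25 (adjusted p = 0.0222) and *Hdac7* fell by 0.37 (adjusted p = 0.0102), and 9 of 11 did not pass. Of all genes 12.2% were called higher and 12.4% lower with age. With MCC950 *Hdac6*, a deacetylase of tubulin like SIRT2, rose by 0.47 (SE 0.11, adjusted p = 0.00967), and 10 of 11 did not pass. In all 6 lists together 24 of 78 tested genes were called with MCC950 against saline, and 4 with the proximal tubule score as a covariate (*Slc34a3*, *Lctl*, *Slc20a2* and *Hdac11*, the last named after its values were seen). Of all genes 11.9% were called higher and 4.86% lower with MCC950 against saline.

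**Figure D5:**
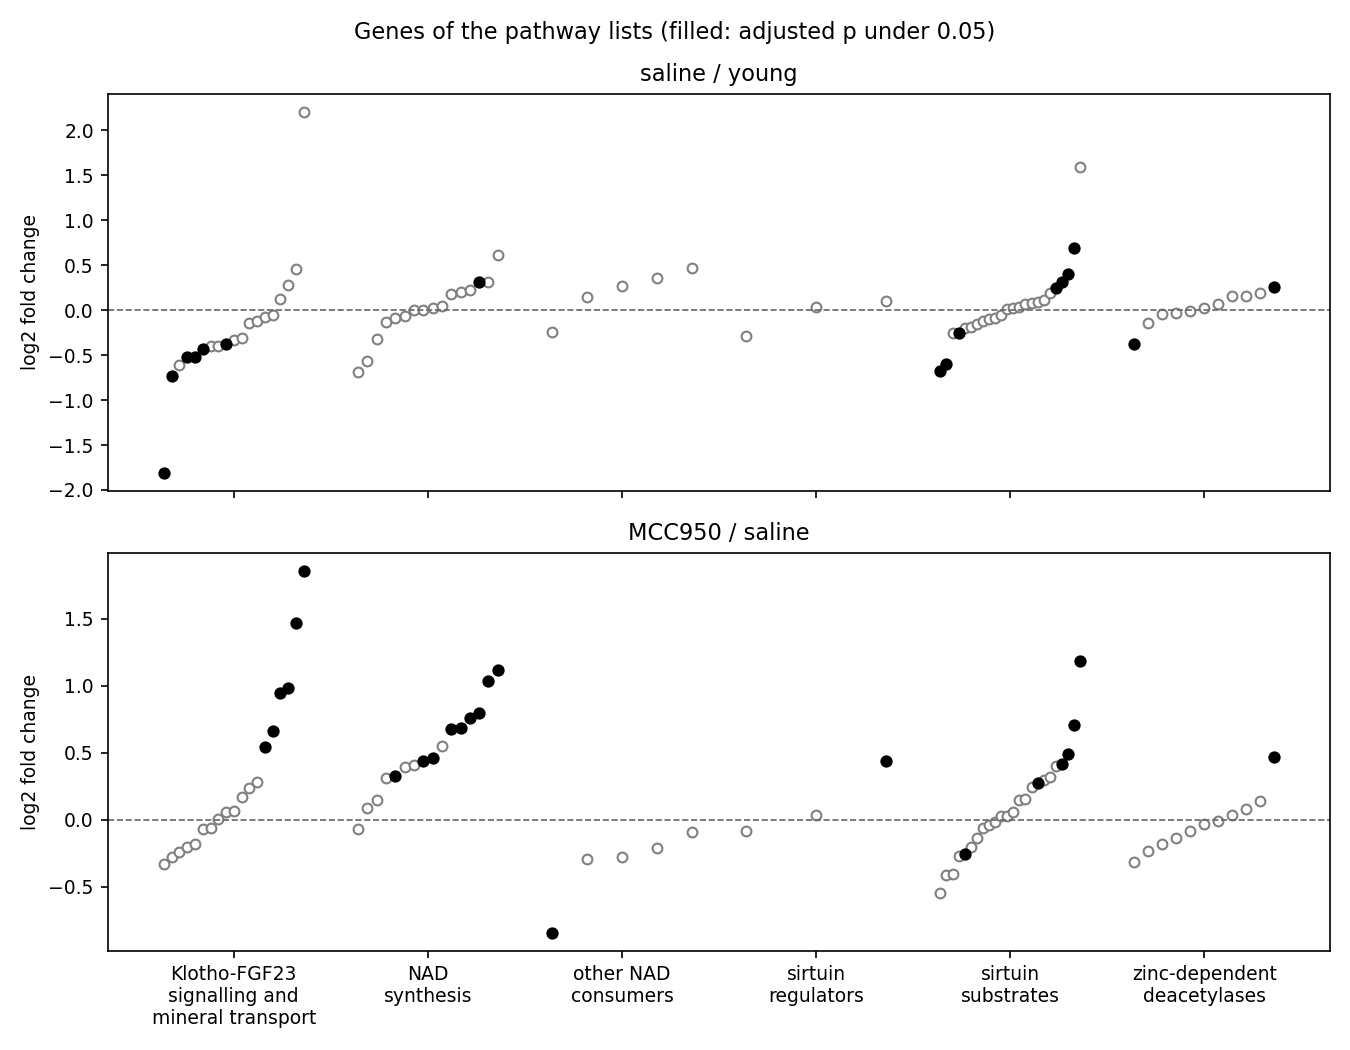
Log2 fold change of the 78 tested genes of 6 lists, sorted within each list, for saline against young mice (top) and MCC950 against saline (bottom). Filled points have an adjusted p under 0.05. With MCC950 9 of 16 genes of the list labelled NAD synthesis, which also holds genes that use, carry or divert NAD, are filled, all above 0.

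The genes whose log2 CPM followed each member most closely from library to library were found after subtracting group means, among 12263 genes over 21 libraries. These correlations describe libraries that share their depth and cell mixture, and no test was made. *Kl* was followed by *Isoc1* (Pearson r = 0.92), *Col4a4* (0.89), *Dynlt3* (0.88), *Vdr* (0.87) and *Sgms2* (0.86). *Vdr* is the gene of this group that belongs to the same endocrine axis. *Sirt3* was followed by *Mccc2*, a mitochondrial enzyme of leucine breakdown (0.97), the carnitine transporter gene *Slc22a5* (0.96) and *Smpdl3a* (0.96). Against saline, MCC950 moved the log2 level by 0.44 for *Mccc2* (adjusted p = 0.0307), 0.59 for *Slc22a5* (adjusted p = 0.0533) and 0.33 for *Smpdl3a* (adjusted p = 0.143), beside 0.56 for *Sirt3*. For *Sirt1* the nearest were *Psd* (0.85), *Arid5a* (0.85) and *Smarca4* (0.84). With MCC950 against saline *Psd* stood at 0.02, *Arid5a* at 0.26 and *Smarca4* at 0.14 on the log2 scale, beside -0.26 for *Sirt1*, and none of them passed. Genes near a member within groups thus need not share its difference between groups. For *Sirt7* the nearest were *Aup1* (0.88), *Anp32b* (0.86) and *Gpatch4* (0.83). *Sirt4* was nearest to *Mtx1* (0.85), *Rapgef3* (0.83) and *P4ha2* (0.83), and *Sirt5* to *Spin1* (0.83), *Klhl14* (0.82) and *Brcc3* (0.78). *Sirt2* and *Sirt6* had the weakest nearest genes, *Uchl5* (0.72), *Prpf19* (0.71) and *Nabp2* (0.68) for *Sirt2* and *G6pd2* (0.74), *Btbd11* (0.72) and *Wdr37* (0.70) for *Sirt6*.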

How the data were processed

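The study sequenced mRNA of magnetically sorted podocyte fractions (TruSeq libraries). The authors trimmed reads with Trim Galore, aligned them to mm10 (GRCm38) with Bowtie2 and made raw counts per Entrez gene with featureCounts, which were deposited for 21 libraries. Bowtie2 does not splice alignments, so reads across exon junctions can be lost. The annotation release, strand setting and use of reads with several alignments are not given in the sources used here. A deposited signal table holds the authors' counts divided by DESeq2 size factors for 20 libraries, and saline replicate 6 has no column.

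RefSeq symbols matched 25275 of 27179 gene numbers. Counts were scaled by TMM, filtered by filterByExpr and tested with the quasi-likelihood test of edgeR 4.0.16 in R 4.3.3, all 3 groups in 1 fit, adjusted by Benjamini-Hochberg over 16377 genes. The steps were tested on simulated data, in which 200 genes differed between saline and young, split evenly between changes of 1.5-fold and 2-fold. The test called 44 of the genes changed 1.5-fold, 82 of those changed 2-fold and 5 unchanged genes. Changes of 2-fold or less can thus be missed, those of 1.5-fold more often than those of 2-fold. A gene that did not pass is not shown to be unchanged. Alternatives were DESeq2 1.42.0 (its size factors and its Wald test), limma 3.58.1 on log2(signal + 1), no filter, at least 10 counts in every library, only the 2 groups compared, libraries thinned to 5804891 counts outside mitochondrial genes, mitochondrial genes left out, marker scores as covariates, a replicate block and leaving out each library. Marker scores are mean log2 CPM with a prior count of 2, compared by exact permutation tests. P-values reflect the spread between libraries that the labels number as replicates.

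The members and lists were chosen with earlier results of these data known. Named were all members, the 5 genes *Fgf23*, *Fgfr1*, *Nampt*, *Ppargc1a* and *Ccar2*, up to 4 genes per list, comparison and direction with an adjusted p under 0.05 and a mean of at least 1 log2 CPM, ordered by fold change, the first 2 markers of a list (1 of them is not reported here), and the 5 (*Kl*) or 3 (sirtuins) most correlated genes. Locations are from GENCODE M21 and promoters from RefSeq (GRCm38.p6). For *Sirt1*, on the minus strand, the upper end of the gene is 63381704 in GENCODE and 63339035 in RefSeq. Its promoter window therefore lies inside the GENCODE location.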

Additional observations from a re-analysis of the deposited data

Results flagged for a closer look

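In 3 of 24 sets of libraries (8 members in 3 groups) 1 library stood further from the others than Dixon's 95% critical value, where chance gives about 1.2. *Sirt2* in young replicate 4 was 22.5 CPM against 20.4 to 21.1 CPM in the other young libraries. *Sirt6* in MCC950 replicate 6 was 6.52 CPM against 4.37 to 5.33 CPM in the others of its group. *Sirt7* in saline replicate 4 was 22.5 CPM against 26.9 to 29.4 CPM in the other saline libraries.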

How the results depend on the processing

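Of the members' fold changes under the 12 other settings, 253 kept their direction and side of the threshold, 20 lost the call, 4 gained it and 11 turned direction. With age 2 members were called, and 0 with the podocyte or the distal tubule score as a covariate and 1 with thinned libraries. With MCC950 against saline 4 were called, and 0 with the proximal tubule score, 2 with no filter and 2 with limma. Between MCC950-treated and young mice 3 were called, and 0 with the podocyte score. Leaving out 1 library gave 2 to 4 members called with MCC950. The genes of the lists called numbered 16 with age (0 with the podocyte and 3 with the distal tubule score), 24 with MCC950 against saline (4 with the proximal tubule score) and 42 between MCC950-treated and young mice (1 with the podocyte score). With the podocyte score the age comparison called 6 of all genes. That score did not overlap between young and saline-treated mice.

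Directions turned only for values that had passed no test, apart from *Sirt7* with age, which was -0.10 with the podocyte score. With the same score the age values of *Sirt1*, *Sirt2* and *Sirt5* were 0.057, -0.032 and -0.27, and the distal tubule score gave 0.0039 for *Sirt3*. With MCC950 against saline, *Sirt5* was -0.20 and *Sirt6* 0.10 with the proximal tubule score, and *Sirt6* was 0.0065 with the distal tubule score and 0.0089 with thinned libraries. Leaving out 1 library gave -0.014 to 0.11 for *Sirt5* and -0.073 to 0.019 for *Sirt6*. Against young mice *Sirt5* was -0.10 with the podocyte and -0.026 with the proximal tubule score. Apart from the covariates, which take up their share of the difference by construction, and thinning, which lowers depth, the cause was not tested.

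Correlations of same-numbered libraries ranged from -0.061 to 0.35 with age, from -0.14 to 0.33 with MCC950 and from -0.013 to 0.40 against young mice. Those of differently numbered libraries were not set beside them, so whether the replicate numbers pair the libraries was not settled. With a replicate block *Sirt3* was also called between MCC950-treated and young mice (0.48, adjusted p = 0.00166), and the members called numbered 2, 4 and 4 in the 3 comparisons. Marker comparisons with an adjusted p under 0.05 numbered 16 of 33, also without mitochondrial genes. Thinning moved the SE of *Sirt2* with age from 0.0592 to 0.0754 and that of *Sirt5* from 0.147 to 0.138.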
